A study of Homo sapiens with 34 samples.

Results

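The 34 genes described here are transcriptional targets of p53, taken by name and followed through total RNA of hTERT RPE-1 cells, a telomerase-immortalised human retinal pigment epithelial line. Each gene was matched by its symbol in the deposited tables, and the rule itself uses no measured value. Of the 34 genes, 33 had enough reads to be tested, among 12081 genes tested in all and 29324 genes with at least 1 intron measured. The remaining gene, GDF15, which encodes a secreted stress cytokine, had 41 spliced-junction reads over all 34 libraries and at most 5 in any library.

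The libraries came from 17 groups of 2 biological duplicates. Every group, controls included, carried a hybrid guide RNA (hgRNA), which joins a Cas9 guide to a Cas12a guide so that a segment between both cuts can be lost. Deletions within genes were made in FNBP4 around an exon with a premature termination codon (PTC exon, hgRNAs 3 and 4), in HNRNPD (1 hgRNA), in DDX5 (2 hgRNAs), in DDX17 (2 hgRNAs), in an intron of FNBP4 (hgRNAs 1 and 2) and in HDAC7 (2 hgRNAs). The labels name a PTC exon for the DDX17 and HDAC7 deletions too, and list the same Cas9 guide for both hgRNAs of the HDAC7 deletion. Libraries labelled as gene knockouts of DDX5, DDX17, FNBP4 and HDAC7 had 1 hgRNA each, with an exonic Cas9 guide and an intergenic Cas12a guide. The label of the HDAC7 knockout lists the Cas9 guide of the FNBP4 knockout, so which gene was cut in these libraries is not settled, and they are called the libraries labelled HDAC7 knockout. The controls were 2 hgRNAs with both guides intergenic. Lentivirus was given at a low dose, of under 1 particle for each cell, before 72 h of selection in 20 µg/ml puromycin and 4 further days of growth, and the labels name no cloning step.

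p53 is a transcription factor that is held low in unstressed cells because MDM2 marks it for degradation, and DNA damage and other stresses release it from this control. It then switches on genes that stop the cell cycle, repair DNA, adjust metabolism and autophagy, and prepare cell death, and it also switches on MDM2 and PPM1D, which shut it off again. Because MDM2 is both a target and an inhibitor of p53, its transcript reads out the pathway and closes its feedback loop.

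p53 binds as a tetramer to a pair of 10-base half-sites, and the elements near the start sites of members are printed to show what such a site looks like. Promoter windows of 300 bases, 250 before to 50 after a start site, were taken from RefSeq (GRCh38.p14). They were searched for the p53 consensus element of 20 bases without a spacer. The C and G in the core of each half-site were required, and up to 3 mismatches were allowed at the other positions. For each gene the element with the fewest mismatches was taken. The consensus is its own reverse complement, so both strands are covered. Windows were found for 27 members, and 8 of these held such an element. Of all 27305 genes with a window 373 (1.37%) held one in at least 1 window. No windows were at hand for RRM2B, TP53INP1, TNFRSF10B, TNFRSF10A, PHLDA3, ASCC3 and GADD45A. The elements of members tested here are printed below on the strand of the gene with up to 40 bases on each side, the 20-base element in capitals. No line runs past the start site, or past the end of the element where that lies further on. The lines of MDM2, FAS and RPS27L end with the 40-base flank, before the start site.
MDM2: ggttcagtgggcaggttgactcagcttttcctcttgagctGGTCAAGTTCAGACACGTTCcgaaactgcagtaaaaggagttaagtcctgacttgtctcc
FAS: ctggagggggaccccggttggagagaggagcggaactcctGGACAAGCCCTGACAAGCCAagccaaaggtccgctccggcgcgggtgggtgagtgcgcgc
DDB2: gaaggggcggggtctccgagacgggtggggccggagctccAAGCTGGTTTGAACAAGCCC
AEN: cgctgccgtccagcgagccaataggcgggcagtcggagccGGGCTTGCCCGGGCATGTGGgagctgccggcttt
SESN1: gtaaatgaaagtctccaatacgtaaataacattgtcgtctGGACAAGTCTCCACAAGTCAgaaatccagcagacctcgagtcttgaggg
FDXR: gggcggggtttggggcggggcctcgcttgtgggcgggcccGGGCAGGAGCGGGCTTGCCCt
RPS27L: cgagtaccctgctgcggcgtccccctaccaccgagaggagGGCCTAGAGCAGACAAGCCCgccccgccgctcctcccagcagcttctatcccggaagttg

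The MDM2 stretch is chr12:68808883-68808982 on the plus strand and precedes the second, inner promoter of the gene. The others are chr10:88991269-88991368 (FAS, plus), chr11:47214929-47214988 (DDB2, plus), chr15:88621266-88621339 (AEN, plus), chr6:109008989-109009077 (SESN1, minus), chr17:74872995-74873055 (FDXR, minus) and chr15:63157487-63157586 (RPS27L, minus). The element of DDB2 had 1 mismatch, those of MDM2, FAS and AEN had 2, and those of SESN1, FDXR and RPS27L had 3. A match is a description of the letters and not a measured binding site, and the absence of one says only that these windows do not hold it.

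Most of the results below turn on 3 deletion hgRNAs, whose guides are given by the labels as follows. They are printed because the FNBP4 hgRNA 3 shares its Cas9 guide with hgRNA 2 of the FNBP4 intron deletion.
FNBP4 hgRNA 3, Cas9: tgtgaattccacggtccaag
FNBP4 hgRNA 3, Cas12a: tccaatgtgtggctggccaaact
FNBP4 hgRNA 4, Cas9: caactactcctgattaacct
FNBP4 hgRNA 4, Cas12a: taagtctcatctgttggagtgag
FNBP4 intron hgRNA 2, Cas12a: cactgccagcaactctgtgaata
HNRNPD hgRNA, Cas9: ataagggtagggtgtatgtg
HNRNPD hgRNA, Cas12a: gaacaaattgtcaaccacaatca

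FNBP4, which encodes a formin-binding protein, lies at chr11:47716517-47767443 and HNRNPD, which encodes an RNA-binding protein that acts on AU-rich elements, at chr4:82352498-82374503 (GRCh38, GENCODE v29). The guide sites themselves were not placed within these genes.

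The expression of a gene was taken from its spliced-junction reads, from 12353936 to 20233610 such reads per library, and is given as CPM, counts scaled to a common library total of these reads, after removal of a trend with GC content and transcript length. All fold changes are log2 and all adjusted p-values are from limma, Benjamini-Hochberg adjusted over the 12081 genes. A member counts as called past an adjusted p of 0.05. CPM of different genes are not comparable, since they are not divided by length. In RNA from whole cultures, fewer cells making a transcript and less transcript per cell cannot be told apart. Checked by its own transcript, the edited gene was lower than in controls when DDX5 was knocked out (-1.93, adjusted p = 4.23e-07), the DDX5 deletion (-0.56, 0.00903), the DDX17 knockout (-0.48, 0.00135) and the HDAC7 deletion (-0.36, 0.0456). FNBP4 was higher with the PTC exon deletion (1.58, adjusted p = 6.83e-06), as was HNRNPD with its deletion (0.36, 0.027). It was not called with the FNBP4 knockout (-0.38, 0.379), the FNBP4 intron deletion or the DDX17 deletion, nor was HDAC7 in the libraries labelled HDAC7 knockout (187 CPM, against 196.5 CPM in controls; -0.07, 0.769). The calls of the edited gene with the DDX5, HDAC7 and HNRNPD deletions did not pass the authors' own false discovery rate, as given below. Of 15 markers of pigment epithelium 8 passed the filter, among them KRT8, KRT18, MITF, OTX2 and RDH5. RPE65, RLBP1, BEST1, TTR, TYR, TYRP1 and LRAT did not pass it. Of 16 markers of other cell types 4 passed it, namely CD68, TUBB3, PTPRC and PECAM1. CRX and NEFL had no read.

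Several libraries stood apart from their duplicates. The standard deviation over genes of the log2 difference between duplicates was 0.504 for DDX17 deletion hgRNA 1, 0.399 for FNBP4 hgRNA 3, 0.390 for HDAC7 deletion hgRNA 1, 0.310 to 0.338 for the knockouts and 0.238 for control hgRNA 1, against 0.116 to 0.192 for the other groups. Replicate 1 of every knockout had 0.965 to 1.21% of its junction reads at unspliced exon-intron borders, against 1.92 to 2.29% in replicate 2 and 1.86 to 3.04% in all other libraries.

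The p53 targets fell broadly in 1 group, the FNBP4 PTC exon deletion, and more narrowly in another, the HNRNPD deletion, while in the 8 other edited groups at most 6 members were called. Against the 4 control libraries, 1 member was higher and 26 were lower with the FNBP4 PTC exon deletion (of all genes, 13.2% higher and 13.8% lower, 26.9% in all). With the HNRNPD deletion 1 was higher and 11 were lower (6.68% and 5.89% of all genes, 12.6% in all). With the DDX5 deletion 4 were higher and 2 lower (8.53% and 11.5%, 20.0% in all), with the DDX17 deletion 0 and 1 (3.77% and 4.67%, 8.43% in all), with the FNBP4 intron deletion 0 and 2 (2.34% and 3.44%, 5.79% in all), and with the HDAC7 deletion 5 and 0 (2.09% and 1.89%, 3.98% in all). The DDX5 knockout had 5 higher and 0 lower (8.13% and 6.44%, 14.6% in all), the DDX17 knockout 0 and 2 (1.80% and 2.33%, 4.13% in all), the FNBP4 knockout 3 and 0 (6.21% and 5.86%, 12.1% in all) and the libraries labelled HDAC7 knockout 2 and 4 (5.41% and 4.85%, 10.3% in all). These 10 comparisons share the same 4 control libraries. Members whose edited and control libraries did not overlap numbered 24 with the HNRNPD deletion (44.7% of all genes), 14 with the DDX5 deletion (34.7%), 11 with the DDX17 deletion (17.8%), 7 with the FNBP4 intron deletion (22.5%) and 12 with the HDAC7 deletion (14%). They numbered 15 with the DDX5 knockout (42.3%), 11 with the DDX17 knockout (32.8%), 17 with the FNBP4 knockout (39.1%) and 17 in the libraries labelled HDAC7 knockout (38.8%). Over the 10 comparisons 28 members were called at least once, and PPM1D, XPC, TP53I3, TNFRSF10A and TRIAP1 were never called.

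**Figure D1:**
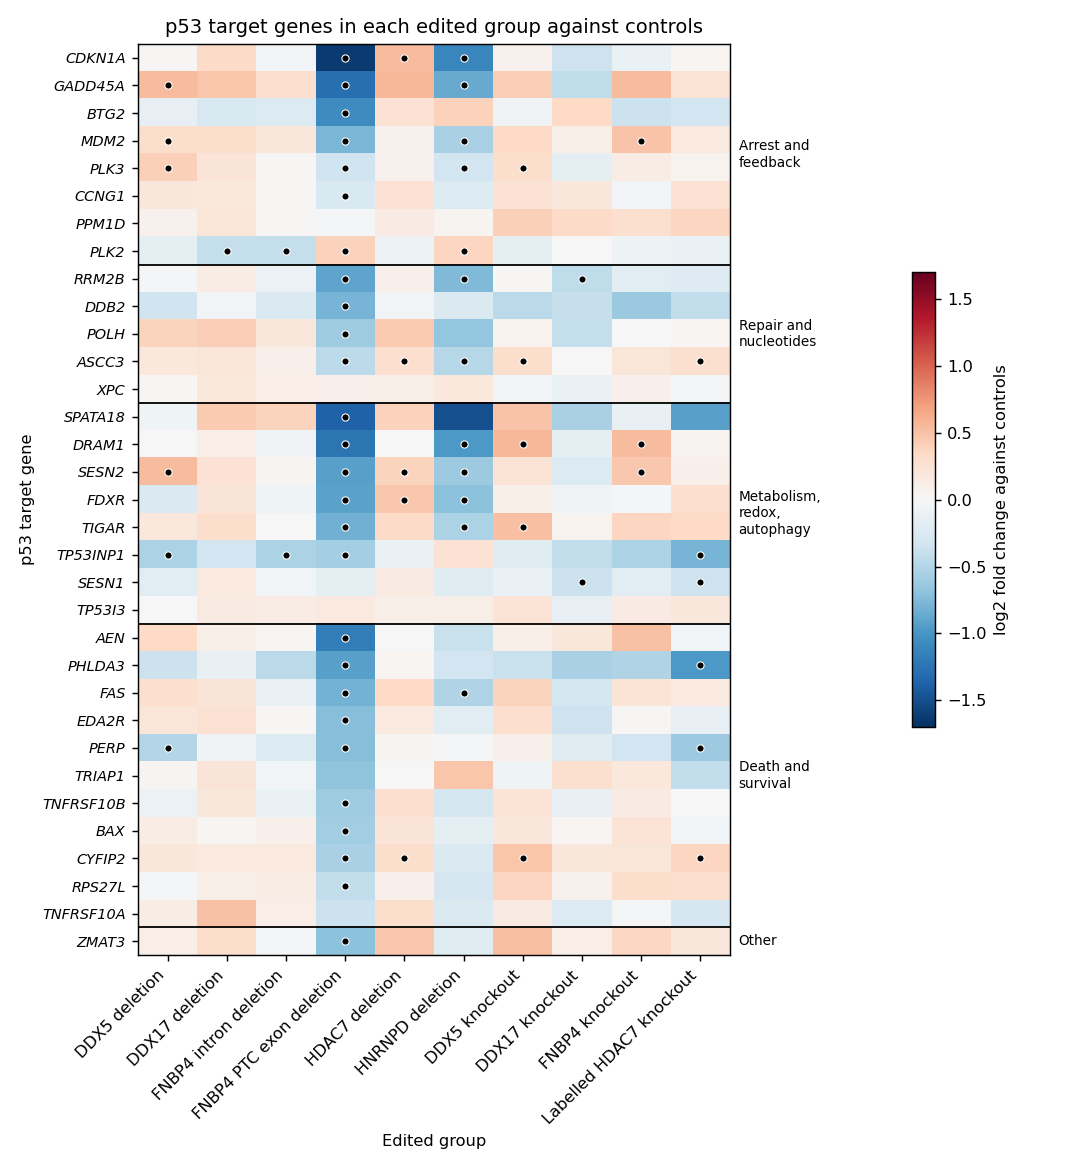
Log2 fold change of the 33 tested members (rows, by role) in 10 edited groups against the 4 control libraries (columns), with a dot on called values. The FNBP4 PTC exon deletion column holds 26 lower calls and 1 higher call, the HNRNPD deletion column 11 lower and 1 higher, and no other column more than 6 calls.

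With the FNBP4 PTC exon deletion, targets of every role were lower. The median log2 fold change of the 33 members was -0.70, against -0.004 over all genes tested. With each of the 2 hgRNAs on its own 17 members were called lower. The share of all genes called lower with each hgRNA on its own is not reported here, so this count has no background beside it. Among genes of arrest and feedback 6 of 8 were lower and 1 was higher, among repair and nucleotide genes 4 of 5 were lower, among metabolism, redox and autophagy genes 6 of 8, among genes of cell death and survival 9 of 11, and ZMAT3, which encodes an RNA-binding zinc finger protein, was lower too (-0.70, adjusted p = 0.00227). For 25 members the edited and the control libraries did not overlap (32.8% of all genes). Leaving out any 1 library left 25 or 26 members called. With the GC and length trend left in, 24 of the 27 calls remained, and those of CCNG1 (-0.10, adjusted p = 0.527), RPS27L (-0.24, 0.13) and ASCC3 (-0.17, 0.266) were lost.

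Markers of cell identity moved in the same libraries. Of the 8 tested pigment epithelium markers 4 were higher and 1 was lower with the FNBP4 PTC exon deletion, with SERPINF1 at 2.58 and RDH5 at -0.61. Of the 4 tested markers of other cells CD68 (0.41) and PECAM1 (1.57) were higher. Of all genes 26.9% were called. SERPINF1 and PECAM1 had few reads, 333 and 137 over all libraries and at most 44 and 14 in any library. Summed over all 15 pigment epithelium markers, unadjusted CPM ran from 868 to 1078 with the deletion, against 957 to 1095 in controls, and summed over all 16 markers of other cells it ran from 110 to 184, against 154 to 186. With the HNRNPD deletion 4 pigment epithelium markers and PTPRC were higher (12.6% of all genes called), and the sums were 1190 to 1242 and 226 to 235. Most reads of the pigment epithelium sum came from KRT8 (343439 over all libraries) and KRT18 (274037), and most of the other sum from TUBB3 (83575). The sums therefore say little about the other markers. The part of these markers in the changes of the p53 targets was not tested.

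Of the arrest and feedback genes, CDKN1A (chr6:36676460-36687339), which encodes the cyclin-dependent kinase inhibitor p21, changed most. It stood at 65.8 and 107 CPM in the hgRNA 3 libraries and 92.3 and 93.8 CPM in the hgRNA 4 libraries, against 234 and 297 CPM in control hgRNA 1 and 319 and 252 CPM in control hgRNA 2. All 4 edited libraries were below all 4 controls, and the log2 fold change was -1.63 ± 0.15 (SE, adjusted p = 3.76e-08). GADD45A, a growth arrest and DNA damage response gene, stood at 27.1 and 31.04 CPM with hgRNA 3 and 33.3 and 33.3 CPM with hgRNA 4, against 63.2, 81.9, 79.2 and 80.1 CPM in controls (-1.28 ± 0.19, adjusted p = 4.03e-05). MDM2 (chr12:68808176-68850686) stood at 106 and 91.2 CPM with hgRNA 3 and 87.5 and 85.7 CPM with hgRNA 4, against 153, 142, 167 and 176 CPM in controls (-0.78 ± 0.11, adjusted p = 1.13e-05). In both genes every edited library was below every control.

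The other arrest genes moved less or the other way. BTG2, an antiproliferative gene, was lower at 1.37 ± 0.35 CPM, against 2.89 ± 0.38 CPM in controls (SD, n = 4 each; adjusted p = 0.00883), and so were the kinase gene PLK3 (-0.33) and CCNG1, which encodes cyclin G1 (-0.25). PLK2, which encodes a polo-like kinase, was the only member called higher. It stood at 968 and 1320 CPM with hgRNA 3 and 1341 and 1267 CPM with hgRNA 4, against 981, 962, 867 and 882 CPM in controls (0.40 ± 0.07, adjusted p = 4.04e-04). The hgRNA 3 replicate 1 value lay within the control range and the other 3 lay above it. PPM1D, the phosphatase gene of the feedback loop, stood at 18.4 ± 3.56 CPM, against 18.6 ± 1.60 CPM in controls (SD, n = 4 each; adjusted p = 0.878).

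**Figure D2:**
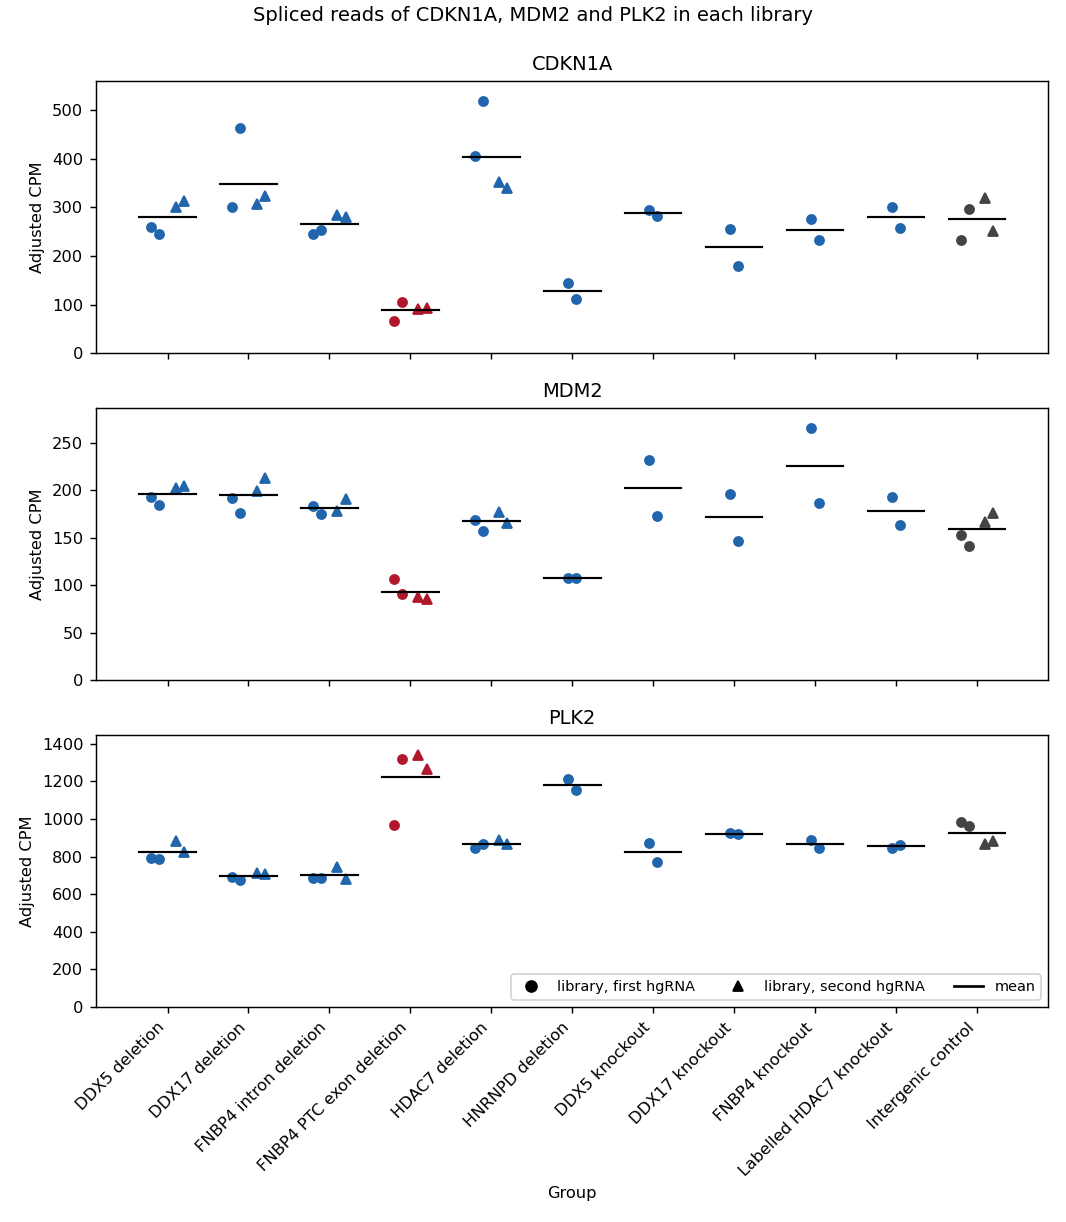
CPM of CDKN1A, MDM2 and PLK2 in every library, by group, with the mean as a bar and the control libraries at the right. In the FNBP4 PTC exon deletion CDKN1A lies between 65.8 and 107 CPM and MDM2 between 85.7 and 106 CPM, below all controls, whereas 3 of 4 PLK2 values lie above the controls.

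Among repair and nucleotide genes RRM2B, a ribonucleotide reductase subunit that supplies deoxynucleotides outside S phase, had the second smallest p of all members. It stood at 24.4 and 33.7 CPM with hgRNA 3 and 34.96 and 34.4 CPM with hgRNA 4, against 52.8, 56.3, 64.0 and 63.2 CPM in controls (-0.90 ± 0.08, adjusted p = 5.44e-08). ASCC3, which encodes a helicase used in the repair of alkylated DNA, stood at 231, 191.8, 187 and 180 CPM, against 259, 246, 280 and 284 CPM in controls (-0.44 ± 0.07, adjusted p = 4.28e-05). Both genes were lower in each edited library than in any control. DDB2, a sensor of ultraviolet damage (2.18 ± 0.08 CPM, against 3.83 ± 0.66 CPM in controls, SD, n = 4 each; adjusted p = 0.0145), and POLH, the translesion polymerase eta gene (-0.61, adjusted p = 0.043), were lower too. XPC, which encodes the other damage sensor of nucleotide excision repair, stood at 47.3 ± 5.84 CPM, against 44.5 ± 2.46 CPM in controls (adjusted p = 0.594).

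Of the metabolic and autophagy targets, 4 were among the 12 members with the smallest p. DRAM1, a lysosomal membrane protein gene of autophagy, stood at 11.4 and 16.2 CPM with hgRNA 3 and 14.8 and 14.1 CPM with hgRNA 4, against 32.3, 28.3, 39.0 and 34.2 CPM in controls (-1.24 ± 0.14, adjusted p = 6.88e-07). SESN2, which encodes sestrin 2, a restraint on mTORC1, stood at 10.2, 7.80, 8.40 and 8.87 CPM, against 15.3, 16.4, 17.9 and 16.5 CPM (-0.92 ± 0.10, adjusted p = 7.70e-07). No edited library of either gene reached the lowest control.
FDXR, the mitochondrial ferredoxin reductase gene, stood at 20.6, 21.3, 22.6 and 23.03 CPM, against 36.1, 42.7, 43.3 and 42.8 CPM in controls (-0.91 ± 0.12, adjusted p = 6.89e-06). TIGAR, which encodes a phosphatase that lowers glycolytic flux, stood at 24.9, 25.8, 25.9 and 26.6 CPM, against 44.6, 43.5, 46.8 and 47.4 CPM (-0.82 ± 0.11, adjusted p = 1.05e-05). These 2 genes had narrow edited ranges that lay apart from the controls. TP53INP1, a stress-induced p53 cofactor (-0.57, adjusted p = 0.00535), and SPATA18, a mitochondrial quality gene at under 1 CPM in each edited library (-1.37, adjusted p = 0.013), completed the lower calls. SESN1, the sestrin 1 gene, stood at 28.3 ± 2.83 CPM, against 31.4 ± 2.72 CPM in controls (adjusted p = 0.18), and TP53I3, a quinone oxidoreductase gene, at 92.4 ± 9.51 CPM, against 82.7 ± 10.0 CPM (adjusted p = 0.278; SD, n = 4 each).

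Among death and survival genes CYFIP2, a subunit of the actin-regulating WAVE complex, had the smallest p. It stood at 51.3, 51.1, 53.1 and 51.3 CPM, against 73.0, 76.3, 76.8 and 77.4 CPM in controls (-0.55 ± 0.08, adjusted p = 1.68e-05). EDA2R, a receptor for ectodysplasin A2, stood at 8.14, 10.4, 9.80 and 8.21 CPM, against 14.7, 15.96, 14.5 and 15.2 CPM (-0.73 ± 0.12, adjusted p = 6.75e-05). FAS, the death receptor gene, stood at 24.7, 24.4, 20.2 and 22.96 CPM, against 37.0, 43.8, 40.5 and 39.4 CPM (-0.80 ± 0.13, adjusted p = 8.30e-05). In all 3 genes the edited and control libraries did not overlap. The nuclease gene AEN (-1.18), the AKT inhibitor gene PHLDA3 (-0.92), the desmosomal gene PERP (-0.72), the death receptor gene TNFRSF10B (-0.60), the pore-forming BAX (-0.59) and RPS27L (-0.42), a ribosomal protein S27 relative, were lower with adjusted p from 1.43e-04 to 0.00388. BAX and PHLDA3 were lowest in replicate 1 of hgRNA 3, the library that stood apart from its duplicate, at 52.7 and 5.94 CPM, and at 88.2 to 97.7 and 12.2 to 13.3 CPM in the other 3. TNFRSF10A (-0.37, adjusted p = 0.151) and the survival gene TRIAP1 (-0.68, adjusted p = 0.0918) were not called.

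**Figure D3:**
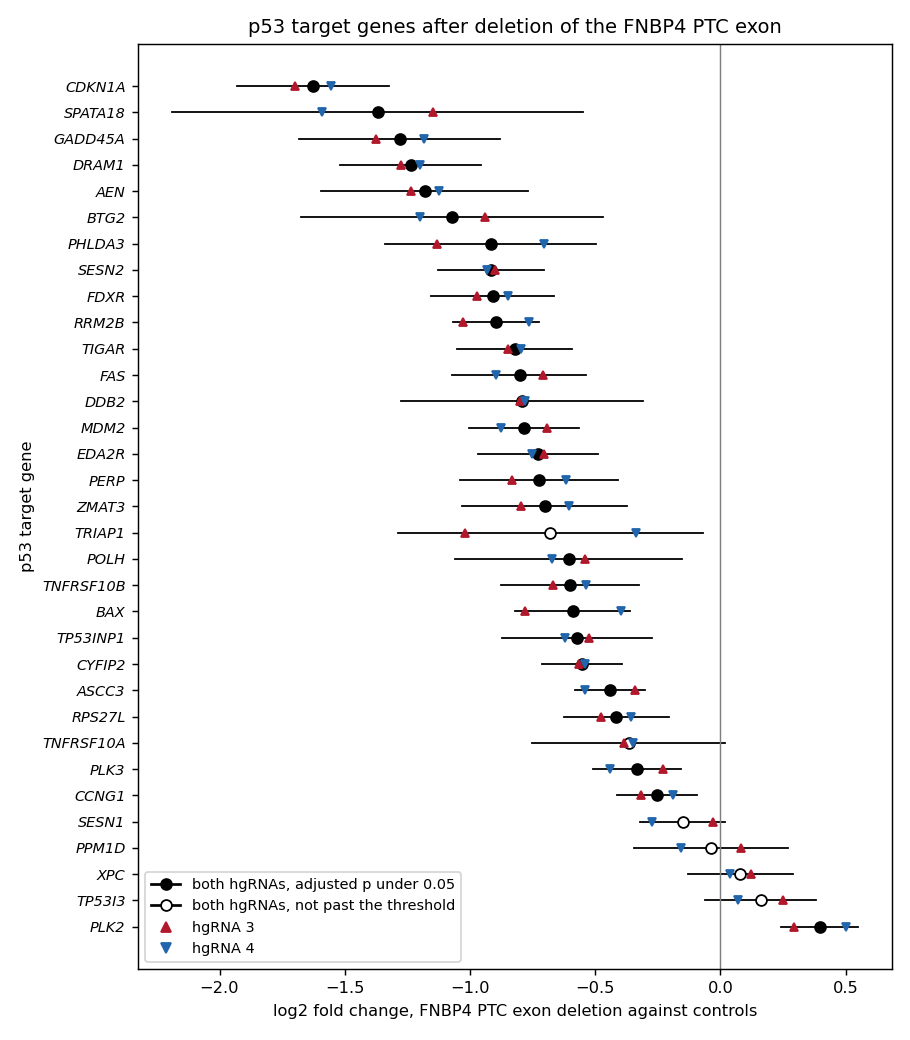
Log2 fold change with its 95% interval for the 33 members, FNBP4 PTC exon deletion against controls, ordered by size, with triangles for each hgRNA. Filled points are called members, 26 below 0 and PLK2 above it, and open points are TRIAP1, TNFRSF10A, SESN1, PPM1D, XPC and TP53I3, which were not called.

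The same members separated the FNBP4 PTC exon deletion from the other edits of FNBP4. Against the FNBP4 intron deletion, 1 member was higher and 24 were lower (18.3% and 16.7% of all genes, 35% in all), with a median of -0.68, and 24 did not overlap (39.5% of all genes). CDKN1A had a log2 difference of -1.58 ± 0.15 (adjusted p = 1.99e-08) and MDM2 of -0.98 ± 0.11 (adjusted p = 1.98e-07). Against the FNBP4 knockout 1 was higher and 19 were lower (17.3% and 18% of all genes, 35.3% in all), with a median of -0.71, and 25 did not overlap (47.9% of all genes). CDKN1A had a difference of -1.52 ± 0.18 (adjusted p = 6.90e-07) and MDM2 of -1.27 ± 0.13 (adjusted p = 8.93e-08). FNBP4 transcript itself was higher with the PTC exon deletion, whereas neither of the other FNBP4 edits had it called, and the part of FNBP4 level in these differences was not tested.

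With the HNRNPD deletion 11 members were lower and PLK2 was higher, and the median over members was -0.28, against 0.02 over all genes. The lower members were 4 of 8 arrest and feedback genes, 2 of 5 repair genes, 4 of 8 metabolic genes and 1 of 11 death and survival genes, which was FAS (-0.52, adjusted p = 0.037). CDKN1A stood at 144 and 112 CPM, against 234, 297, 319 and 252 CPM in controls (-1.11 ± 0.18, adjusted p = 2.57e-04). RRM2B stood at 33.3 and 36.8 CPM, against 52.8, 56.3, 64.0 and 63.2 CPM (-0.75 ± 0.10, adjusted p = 5.47e-05). Both HNRNPD libraries were below all controls for these genes.
DRAM1 stood at 17.03 and 16.9 CPM, against 32.3, 28.3, 39.0 and 34.2 CPM in controls (-0.97 ± 0.17, adjusted p = 5.58e-04). MDM2 stood at 108 and 108 CPM, against 153, 142, 167 and 176 CPM (-0.56 ± 0.13, adjusted p = 0.0065). PLK2 stood at 1214 and 1152 CPM, against 981, 962, 867 and 882 CPM (0.36 ± 0.09, adjusted p = 0.0107). For these 3 genes too the libraries did not overlap. ASCC3 (-0.48, adjusted p = 4.59e-04), SESN2 (-0.62, 0.0016) and FDXR (-0.70, 0.00218) followed. Of the 12 calls 9 remained with the GC and length trend left in, and those of PLK2 (0.29, adjusted p = 0.0637), FDXR (-0.57, 0.141) and PLK3 (-0.21, 0.4) were lost. With 1 hgRNA, an effect of the deletion and of this guide pair cannot be told apart. The count fell to 6 without replicate 1 and to 7 without replicate 2 of the deletion, and to 6 with control hgRNA 1 as the only control.

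The remaining deletions moved few members. With the DDX5 deletion SESN2 was higher in both hgRNAs at 23.2, 24.0, 24.0 and 24.3 CPM, against 15.3, 16.4, 17.9 and 16.5 CPM in controls (0.53 ± 0.09, adjusted p = 1.92e-04). PLK3 stood at 58.9, 53.2, 60.3 and 59.9 CPM, against 43.2, 40.1, 44.1 and 48.2 CPM (0.40 ± 0.08, adjusted p = 0.00115). All edited values of both genes were above all controls. GADD45A (115, 99.2, 119.1 and 106 CPM, 0.54, adjusted p = 0.0385) and MDM2 (193, 185, 202 and 204 CPM, 0.30, adjusted p = 0.0448) were higher, while TP53INP1 (-0.54, adjusted p = 0.0108) and PERP (-0.50, adjusted p = 0.0214) were lower. CDKN1A stood at 280 ± 32.4 CPM, against 276 ± 39.2 CPM in controls (SD, n = 4 each; adjusted p = 0.931). Of these 6 calls 4 remained with the GC and length trend left in. PLK3 (0.16, adjusted p = 0.331) and GADD45A (0.47, 0.0879) lost theirs, and FAS (0.37, 0.00595), CYFIP2 (0.25, 0.0303), EDA2R (0.33, 0.0306), TIGAR (0.30, 0.0411) and ASCC3 (0.34, 0.0418) were called higher. The count of 6 calls became 2 without replicate 2 of control hgRNA 1 and 3 without replicate 1 of control hgRNA 2, without either replicate of DDX5 hgRNA 1 or without replicate 1 of DDX5 hgRNA 2.

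PLK2 was lower with both the DDX17 deletion and the FNBP4 intron deletion. It stood at 689, 676, 714 and 707 CPM with the DDX17 deletion (-0.40 ± 0.07, adjusted p = 0.00122) and at 684, 688, 744 and 683 CPM with the FNBP4 intron deletion (-0.40 ± 0.07, adjusted p = 0.00171), against 981, 962, 867 and 882 CPM in the controls that both share. Neither set overlapped the controls. With the FNBP4 intron deletion TP53INP1 stood at 8.42, 8.52, 8.98 and 9.29 CPM, against 11.7, 16.2, 12.5 and 11.5 CPM in controls (-0.54 ± 0.15, adjusted p = 0.0287). CDKN1A and MDM2 were not called in either, at 349 ± 77.4 and 195.4 ± 15.5 CPM with the DDX17 deletion and 266 ± 19 and 182 ± 6.78 CPM with the FNBP4 intron deletion, against 276 ± 39.2 and 159 ± 15.3 CPM in controls (SD, n = 4 each). The DDX17 deletion had 9 calls without replicate 1 of its hgRNA 1 and 2 without replicate 2. The FNBP4 intron deletion had 1 call without any 1 of its own 4 libraries, without replicate 2 of control hgRNA 1 or without replicate 1 of control hgRNA 2.

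With the HDAC7 deletion the 5 called members were all higher. Both of its hgRNAs carry the same Cas9 guide, so an effect of the deletion and of this guide cannot be told apart. CDKN1A stood at 406 and 518 CPM with hgRNA 1 and 352 and 341 CPM with hgRNA 2, against 234, 297, 319 and 252 CPM in controls (0.54 ± 0.14, adjusted p = 0.0355), and FDXR at 51.5, 65.1, 56.2 and 53.6 CPM, against 36.1, 42.7, 43.3 and 42.8 CPM (0.46 ± 0.11, adjusted p = 0.0195). ASCC3 (0.29, adjusted p = 0.0153), SESN2 (0.38, adjusted p = 0.0176) and CYFIP2 (0.29, adjusted p = 0.0304) were the others, and none of the 5 overlapped the controls. SESN2 and CYFIP2 remained with the GC and length trend left in, CDKN1A (0.61, adjusted p = 0.13), FDXR (0.55, 0.12) and ASCC3 (0.21, 0.355) lost their calls, and ZMAT3 (0.39, 0.0445) was called. With hgRNA 1 on its own CDKN1A (adjusted p = 0.0354) and SESN2 (0.0488) were called and with hgRNA 2 on its own none of the 5 was, and MDM2 was not called (167 ± 8.54 CPM, against 159 ± 15.3 CPM; adjusted p = 0.766). Replicate 2 of hgRNA 1, which stood apart from its duplicate, had the highest CDKN1A. No member was called without it or without replicate 1 of hgRNA 2, and 9 were without replicate 1 of hgRNA 1. The count was 2 without replicate 2 of hgRNA 2, 3 without replicate 2 of control hgRNA 1 and 1 without any other control library.

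Among the knockouts, calls against the controls were few. With the DDX5 knockout CYFIP2 stood at 119.3 and 92.01 CPM, against 73.0, 76.3, 76.8 and 77.4 CPM in controls (0.47 ± 0.09, adjusted p = 0.00148), with TIGAR (0.51, adjusted p = 0.00998), DRAM1 (0.56, 0.013), ASCC3 (0.29, 0.0194) and PLK3 (0.30, 0.049) also higher. With the FNBP4 knockout SESN2 stood at 24.1 and 21.4 CPM (0.46, adjusted p = 0.00853), MDM2 at 266 and 186 CPM, against 153, 142, 167 and 176 CPM in controls (0.48, adjusted p = 0.0155), and DRAM1 at 50.3 and 46.8 CPM (0.54, adjusted p = 0.0184). All of these knockout values lay above all controls.
With the DDX17 knockout RRM2B stood at 43.4 and 44.0 CPM, against 52.8, 56.3, 64.0 and 63.2 CPM in controls (-0.43, adjusted p = 0.0169), and SESN1 at 23.4 and 25.1 CPM, against 27.7, 32.1, 34.2 and 31.6 CPM (-0.37, adjusted p = 0.0464). In the libraries labelled HDAC7 knockout TP53INP1 (-0.79, adjusted p = 0.0122), PHLDA3 (-0.98, 0.0194), SESN1 (-0.35, 0.0338) and PERP (-0.62, 0.0412) were lower, and CYFIP2 (0.37, 0.014) and ASCC3 (0.28, 0.0327) were higher. CDKN1A was not called in any knockout, at 295 and 283 CPM with DDX5, 255 and 181 CPM with DDX17, 275 and 234 CPM with FNBP4 knocked out and 302 and 258 CPM in the libraries labelled HDAC7 knockout, against 234, 297, 319 and 252 CPM in controls. MDM2 stood at 232 and 173 CPM with DDX5, 196 and 147 CPM with DDX17 knocked out and 193 and 164 CPM in the libraries labelled HDAC7 knockout, none of them called. With the GC and length trend left in, the DDX5 knockout lost ASCC3 (adjusted p = 0.133) and PLK3 (0.501) and gained ZMAT3 (0.00562) and FAS (0.0187). The FNBP4 knockout lost SESN2 (0.165) and MDM2 (0.0554) and gained TIGAR (0.0262) and TP53INP1 (0.0303), the DDX17 knockout lost both RRM2B (0.16) and SESN1 (0.156), and the libraries labelled HDAC7 knockout lost PHLDA3 (0.0734), SESN1 (0.15) and ASCC3 (0.174). Without replicate 1 of a knockout no member was called in that knockout, for each of the 4. Without replicate 2 the counts were 7 for DDX5, 0 for DDX17, 2 for FNBP4 and 3 for that labelled HDAC7. Without replicate 2 of control hgRNA 1 they were 3, 0, 1 and 2, without replicate 1 of control hgRNA 2 they were 3, 0, 3 and 2, and without replicate 2 of control hgRNA 2 they were 4, 1, 2 and 5, in the same order of knockouts.

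Replicate numbers carried a common difference in the knockouts. The replicate differences of the 4 knockouts correlated at 0.670 to 0.826 over genes, and 10 members were higher in replicate 1 than in replicate 2 of all 4, MDM2 most (mean log2 difference 0.40), and 7 were lower, POLH most (-0.92). The low share of unspliced borders in every replicate 1 knockout moves with this, and its part in the knockout results was not tested. When each knockout was set against the other 3 with the replicate number as a block, a choice made after the data were seen, the DDX17 knockout had 1 member higher and 16 lower of 33 (7.85% and 8.48% of 11452 genes, 16.3% in all). GADD45A (-0.82 ± 0.09, adjusted p = 2.32e-05), FAS (-0.57, 7.41e-04), DRAM1 (-0.55, 9.32e-04), CDKN1A (-0.35, 0.00585) and MDM2 (-0.24, 0.0193) were among the lower ones. The DDX5 knockout had 10 higher and 0 lower (5.32% and 3.93%, 9.25% in all), led by DRAM1 (0.42, adjusted p = 0.00644), the FNBP4 knockout 4 and 1 (2.74% and 2.50%, 5.24% in all), and the libraries labelled HDAC7 knockout 0 and 2, which were PERP and PHLDA3 (0.926% and 0.856%, 1.78% in all). These 4 comparisons use the same 8 libraries, so their values are not independent of each other.

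As a description over the means of the 17 groups, the median Pearson correlation of a member with the mean of the other members was 0.84, with CDKN1A at 0.97, and 27 of 33 members were above 0.5. The other 12048 genes had a median of -0.02 with the mean of the members, and 20.6% of them were above 0.5. The points share library preparation and depth, and without the 3 groups of the FNBP4 PTC exon and HNRNPD deletions the median was 0.50 and 16 of 33 members were above 0.5, with 10.6% of the other genes. PLK2 ran against the others (-0.79), and TP53I3 (-0.10) and XPC (-0.03) did not follow them. Over the groups CDKN1A spanned 2.45 log2 units, GADD45A 2.07 and DRAM1 1.85, against 0.36 for XPC and 0.40 for TP53I3.

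MDM2 has an outer and an inner promoter, and p53 is known to act on the inner one, where the stretch printed for MDM2 lies. The 71-base first exon of the inner promoter is chr12:68809016-68809086. Junction reads from it into the body of the gene count transcripts of the inner promoter, and reads that join the outer first exon to the same body count those of the outer promoter; reads into the exon from upstream were 0 to 3 per library. This event was picked after its values were seen. The permutation tests of its share exchange single libraries, although each set of 4 holds 2 hgRNAs with 2 duplicates each. Their p-values treat duplicates as independent and do not measure the spread between hgRNAs. The inner share was 46.7 and 53.7% with FNBP4 hgRNA 3 and 43.6 and 54.3% with hgRNA 4, against 67.0, 51.2, 67.1 and 72.1% in controls. Of the edited values 2 lay below all controls and 2 lay above the lowest control, so the groups overlapped, and the means were 49.6 ± 5.24% and 64.3 ± 9.05% (SD, n = 4 each; exact permutation test, two-sided p = 0.0857, adjusted over 10 comparisons 0.286).

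Scaled by library size to CPM, the inner promoter gave 6.03 ± 1.5 reads with the FNBP4 PTC exon deletion, against 17.8 ± 3.56 in controls, and the outer promoter 6.04 ± 0.86, against 9.67 ± 1.79 (SD, n = 4 each). Against the FNBP4 intron deletion, whose inner share was 78.2 ± 3.49% and itself 13.9 points above controls with no overlap (exact permutation p = 0.0286, adjusted 0.143), the PTC exon deletion was 28.6 points lower with no overlap (exact permutation test, two-sided p = 0.0286, the smallest that 4 against 4 allows). The inner share was 51.5 and 50.9% with the HNRNPD deletion, and 80, 78.9, 78.5 and 80.6% with the DDX5 deletion, above all controls (exact permutation p = 0.0286, adjusted 0.143). Replicate 2 of control hgRNA 1, of DDX17 deletion hgRNA 1 (52.7%) and of HDAC7 deletion hgRNA 1 (55.7%) had lower shares than their duplicates. Shares rested on at least 137 reads, and their exact (Clopper-Pearson) 95% intervals reached at most 8.71 points from the value, for counting error only.

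**Figure D4:**
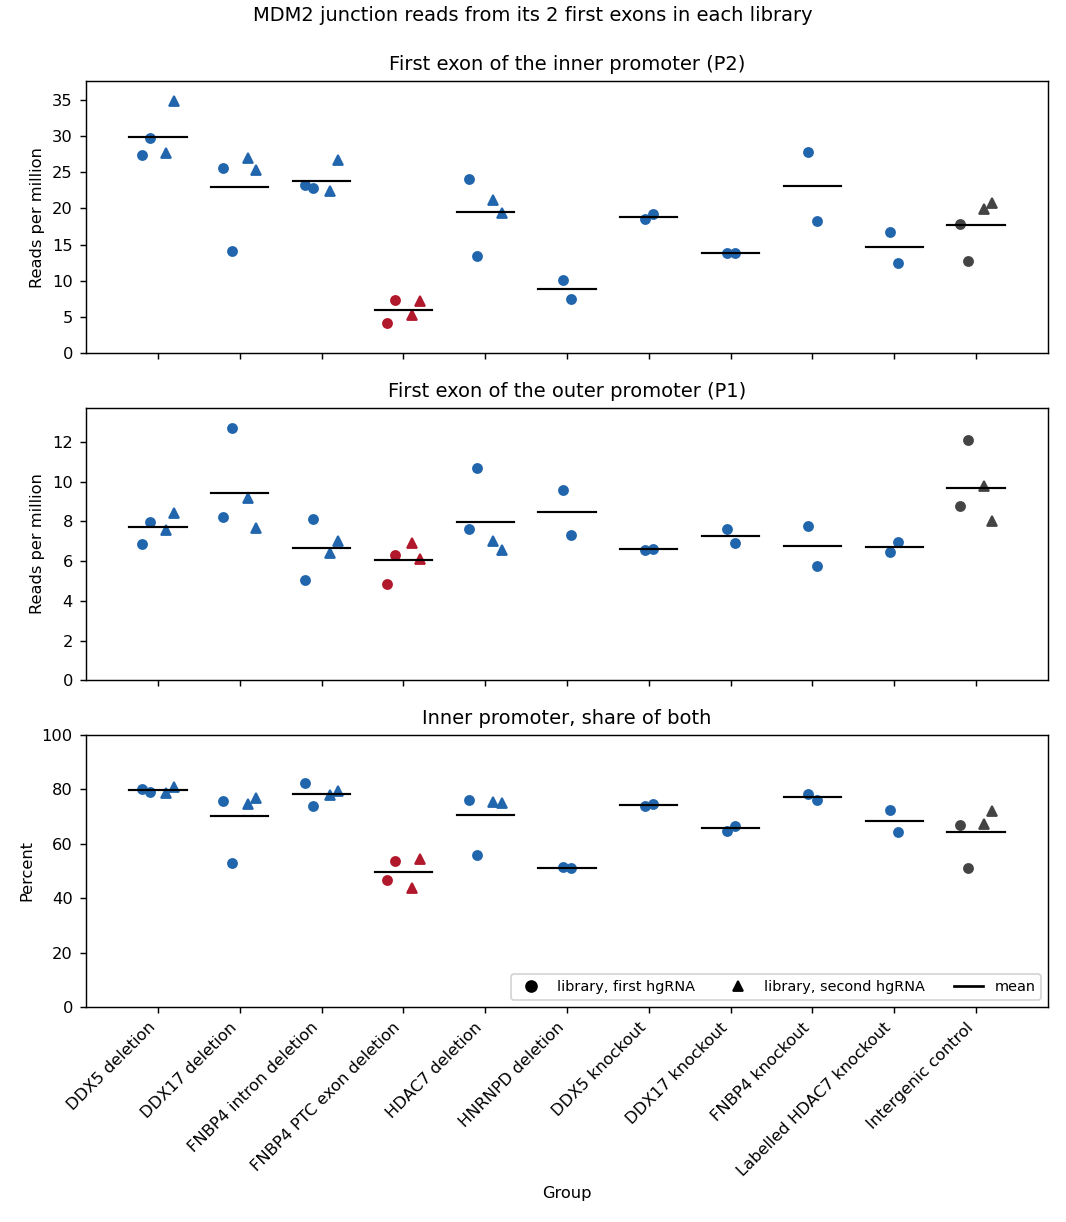
MDM2 junction reads in CPM from the first exon of the inner promoter (top) and of the outer promoter (middle), and the inner share in percent (bottom), for each library by group with the mean as a bar. The share with the FNBP4 PTC exon deletion lies between 43.6 and 54.3% and the HNRNPD deletion at 50.9 and 51.5%, against 51.2 to 72.1% in controls.

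No splicing event of a member was called in any of the 10 comparisons with controls, where a call needed an adjusted p under 0.05 and 10 percentage points. For the FNBP4 PTC exon deletion 709 events of 30 members were tested (0.00823% of all events called), and 132 had an unadjusted p under 0.05. Of these, 15 had an adjusted p under 0.05 (0.160% of all events), and the 5 with the smallest p were events of CDKN1A and GADD45A at 0 or 100% in every library of both groups. All of these 15 events had a difference of 0.00 percentage points and were at 0 or 100% in every library of both groups. At such events the tested log ratio of reads, with its pseudocount of 1, changes only with the number of reads. Event HsaALTA1021984-1/2 of CDKN1A, for example, had a lowest read count of 175 in edited libraries and 2291 in controls. These 15 events therefore show no change of splicing. Elsewhere 4 member events had an adjusted p under 0.05 with a difference under 10 points. Exon HsaEX0057423 of SESN2 was included at 93.17 and 95.93% in the DDX17 knockout, against 100% in every control (adjusted p = 0.00181), on at least 83 reads. With the DDX5 deletion an intron of TNFRSF10B was retained at 0.82%, against 0.05% in controls (adjusted p = 0.028), and a pair of acceptor sites of TP53I3 shifted by 0.73 points (0.0444). In the other comparisons 0 to 0.0214% of all events were called, 779 to 841 events of 31 members were tested and 37 to 122 had an unadjusted p under 0.05. The share of all events under this unadjusted p is not reported here for any comparison, so these counts have no background beside them.

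p53 is controlled mainly through protein stability, which RNA does not measure. Of 32 tested regulators of p53, which include kinases, acetylases and ubiquitin ligases, 3 were higher and 1 was lower with the FNBP4 PTC exon deletion (12.5% of the list, against 26.9% of all genes). They were the deacetylase gene HDAC1 (171 ± 10.4 CPM, against 122 ± 3.03 CPM in controls, SD, n = 4 each; 0.48, adjusted p = 8.50e-06), the acetylase genes EP300 (0.38, adjusted p = 0.0348) and CREBBP (0.39, 0.0426), and the damage kinase gene ATR (-0.31, 0.00122). With the HNRNPD deletion HDAC1 (0.31, adjusted p = 0.012), DAXX (0.47, 0.00384) and RPL11 (0.65, 0.0193), whose protein binds MDM2, were higher and ATR (-0.48, 5.68e-04) was lower. Regulators called higher and lower were 3 and 5 with the DDX5 deletion, 1 and 4 with the DDX17 deletion, 1 and 3 with the FNBP4 intron deletion, 0 and 1 with the HDAC7 deletion, 1 and 4 with the DDX5 knockout, 0 and 2 with the FNBP4 knockout, 1 and 0 in the libraries labelled HDAC7 knockout and 0 and 0 with the DDX17 knockout, where 6 had an unadjusted p under 0.05 by limma. The share called was 25% with the DDX5 deletion (20.0% of all genes), 15.6% with the DDX17 deletion (8.43%), 12.5% with the FNBP4 intron deletion (5.79%) and 12.5% with the HNRNPD deletion (12.6%), and 0 to 15.6% in the others (3.98 to 14.6%). With the GC and length trend left in, 8 and 1 regulators were called with the FNBP4 PTC exon deletion, 1 and 1 with each of the DDX17, FNBP4 intron and HNRNPD deletions, 0 with the HDAC7 deletion, 1 and 2 with the DDX5 knockout and 0 and 1 with the FNBP4 knockout. Among the genes called, the DDX5 deletion lowered PPP1R13L (-0.30, adjusted p = 0.00644), CHEK1 (-0.31, 0.0103) and TRIM24 (-0.27, 0.0149), and the DDX17 deletion lowered TRIM24 (-0.36, 0.00539) and SIRT1 (-0.30, 0.0177) and raised SETD7 (0.48, 0.0037). The FNBP4 intron deletion lowered PPP1R13L (-0.29, adjusted p = 0.0212) and TRIM24 (-0.27, 0.0342) and raised SETD7 (0.35, 0.0385). MDM4, the relative of MDM2 that also restrains p53, was lower with the DDX5 knockout (-0.69, adjusted p = 0.028) and the FNBP4 knockout (-0.67, 0.0384), and TP73 was lower with the DDX5 knockout (-1.01, 0.0229) beside TRIM24 (-0.39, 0.00777) and a higher SETD7 (0.63, 0.0012).

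A further 60 tested genes often listed as p53 targets moved less uniformly. With the FNBP4 PTC exon deletion 4 were higher and 17 lower (35% of the list, against 26.9% of all genes), with a median of -0.27. Among those lower were the ion cotransporter gene SLC12A4 (-0.63, adjusted p = 2.13e-05), TP53INP2, a gene of autophagy (-1.40, 4.84e-05), and the phosphatase gene PTP4A1 (-0.58, 1.15e-04). With the HNRNPD deletion 6 were higher and 5 lower, with SLC12A4 (-0.64, adjusted p = 4.58e-04) and HRAS (-0.55, 6.81e-04) among those lower and PLTP (0.47, 0.0017) among those higher. Counts in the other 8 groups were 7 and 9 with the DDX5 deletion, 3 and 6 with the DDX17 deletion, 2 and 5 with the FNBP4 intron deletion, 4 and 1 with the HDAC7 deletion, 7 and 4 with the DDX5 knockout, 1 and 3 with the DDX17 knockout, 9 and 8 with the FNBP4 knockout and 3 and 6 in the libraries labelled HDAC7 knockout, higher first. The share of the list called was 18.3% with the HNRNPD deletion (12.6% of all genes), 26.7% with the DDX5 deletion (20.0%) and 15% with the DDX17 deletion (8.43%). It was 11.7% with the FNBP4 intron deletion (5.79%), 8.33% with the HDAC7 deletion (3.98%) and 18.3% with the DDX5 knockout (14.6%). It was 6.67% with the DDX17 knockout (4.13%), 28.3% with the FNBP4 knockout (12.1%) and 15% in the libraries labelled HDAC7 knockout (10.3%). With the GC and length trend left in, the HNRNPD deletion had 4 and 2, the DDX17 and FNBP4 intron deletions 2 and 2 each, the HDAC7 deletion 2 and 1, and the DDX5, DDX17 and FNBP4 knockouts 3 and 4, 0 and 2, and 4 and 5.

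Of these genes, the DDX5 deletion changed KITLG (1.11, adjusted p = 1.93e-05), TNFAIP8 (-3.47, 2.05e-05) and DDIT4 (-1.35, 1.91e-04), the DDX17 deletion TNFRSF10D (0.49, 2.11e-04), PLTP (-0.37, 0.00432) and TNFAIP8 (-1.695, 0.00803), and the FNBP4 intron deletion PLTP (-0.46, 7.33e-04), TNFRSF10D (0.35, 0.00669) and TSKU (-0.87, 0.013). The HDAC7 deletion changed TNFRSF10D (0.40, adjusted p = 0.00367), SLC12A4 (0.38, 0.0195) and STEAP3 (-0.51, 0.0215). Of the knockouts, that of DDX5 changed TNFRSF10D (0.84, adjusted p = 3.64e-06), BLOC1S2 (0.50, 8.17e-04) and PLTP (-0.45, 0.00319), that of DDX17 FUCA1 (-0.97, 3.49e-05), HRAS (0.75, 3.92e-05), EPS8L2 (-0.62, 0.00565) and PLXNB2 (-0.40, 0.0121), that of FNBP4 NOTCH1 (0.55, 1.97e-04), CD82 (-0.997, 4.97e-04) and HRAS (0.53, 6.50e-04), and that labelled HDAC7 HRAS (0.55, 8.01e-04), NINJ1 (-0.91, 0.00728) and PLTP (-0.43, 0.00785).

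p21 blocks cyclin-dependent kinases, which lets the DREAM complex repress genes of the cell cycle, and 40 such genes were followed. With the FNBP4 PTC exon deletion, where CDKN1A was lower, 0 were higher and 10 were lower (25% of the list, against 26.9% of all genes), among them E2F1 (6.32 ± 1.12 CPM, against 13.96 ± 1.11 CPM in controls; -1.15, adjusted p = 1.06e-06), RRM2 (-0.56, 5.20e-04) and MCM6 (-0.41, 5.45e-04). With the HNRNPD deletion 0 were higher and 8 lower (20% of the list, against 12.6% of all genes). Among them were ECT2 (-0.35, adjusted p = 0.00342), E2F1 (-0.66, 0.00447) and MCM6 (-0.43, 0.00519). With the HDAC7 deletion, where the higher CDKN1A was not called with the GC and length trend left in, 0 were higher and 17 lower (42.5% of the list, against 3.98% of all genes), led by the cyclin genes CCNB2 (-0.68, adjusted p = 0.00126) and CCNA2 (-0.52, 0.00167), UBE2C (-0.52, 0.00167) and KIF20A (-0.43, 0.00183).

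CDKN1A was not called in the following groups. With the DDX17 deletion 16 of the 40 were lower (40% of the list, against 8.43% of all genes), led by UBE2C (-0.50, adjusted p = 8.47e-04) and CCNB2 (-0.57, 0.00203). With the DDX5 knockout 9 were lower (22.5%, against 14.6%), led by BUB1 (-0.60, adjusted p = 8.68e-04) and CHEK1 (-0.53, 0.00171). With the DDX5 deletion 5 were lower, led by MCM6 (-0.39, adjusted p = 0.00115), a share below that of all genes (12.5%, against 20.0%). None were higher in these 3. The DDX17 knockout had 8 higher, led by TPX2 (0.43, adjusted p = 0.00147) and MYBL2 (0.65, 0.00711), and the libraries labelled HDAC7 knockout 5 higher, led by TPX2 (0.46, 4.62e-04), with none lower in either. The FNBP4 knockout had 1 higher and 1 lower, and the FNBP4 intron deletion had 0 of 40 called by limma, with 3 at an unadjusted p under 0.05. The share called was 20% with the DDX17 knockout (4.13% of all genes) and 12.5% in the libraries labelled HDAC7 knockout (10.3%). It was 5% with the FNBP4 knockout (12.1%) and 0% with the FNBP4 intron deletion (5.79%). Under a fit that left the GC and length trend in, 8 were lower with the DDX17 deletion and 2 with the DDX5 deletion, and 5 were higher with the DDX17 knockout, 2 in the libraries labelled HDAC7 knockout and 1 with the FNBP4 knockout.

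The authors' deposited table holds their own fold changes and false discovery rates for each hgRNA against the controls. At a false discovery rate under 0.05 in the authors' deposited table, of the 34 genes 0 were higher and 18 lower with FNBP4 hgRNA 3 (14.4% of all genes called), 1 and 17 with hgRNA 4 (7.53%), and 0 and 10 with the HNRNPD deletion (5.07%). In the authors' deposited table the DDX5 knockout had 6 and 0 (6.18%) and the FNBP4 knockout 4 and 0 (6.80%). Of the 27 members called here with the FNBP4 PTC exon deletion, 16 had the same direction and passed this rate in the authors' deposited table with both hgRNAs, 3 with 1 of them and 8 with neither. The 8 were ASCC3, PERP, ZMAT3, RPS27L, TP53INP1, SPATA18, CCNG1 and POLH. In the authors' deposited table TP53INP1 was at -0.004 and -0.04 with hgRNAs 3 and 4 (false discovery rates 1 and 0.996) and PERP at 0.05 and -0.22 (0.918 and 0.421). Of the members called here, the authors' deposited table did not have SESN2, FDXR, PLK2 and PLK3 past the rate with the HNRNPD deletion (4 of 12), nor 5 of 6 with the DDX5 deletion, 2 of 2 with the FNBP4 intron deletion, 3 of 5 with the HDAC7 deletion, 3 of 5 with the DDX5 knockout, 2 of 2 with the DDX17 knockout, 1 of 3 with the FNBP4 knockout and 5 of 6 in the libraries labelled HDAC7 knockout. In those last libraries PERP was at 0.19 in the authors' deposited table, the opposite sign (false discovery rate 0.509), and PHLDA3 at -0.13 (0.938). PERP was at 0.04 and -0.03 with the hgRNAs of the DDX5 deletion in the authors' deposited table (both 1). CDKN1A was at 121 RPKM with hgRNA 3, 155 RPKM with hgRNA 4 and 222 RPKM with the HNRNPD deletion, against 413 RPKM in controls, in the authors' deposited table. In the authors' deposited table DDX5 with its deletion was at -0.41 and -0.38 (false discovery rates 0.24 and 0.337). There HDAC7 with its deletion was at -0.07 and -0.44 (0.991 and 0.574), and HNRNPD with its deletion at 0.29 (0.230). DDX5 (-1.85) and DDX17 (-0.56) in their knockouts and FNBP4 with hgRNAs 3 and 4 (1.61 and 1.27) passed the rate in the authors' deposited table. GDF15, which could not be tested from junction reads, was at 0 to 0.25 RPKM in the authors' deposited table.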

How the data were processed

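Total RNA of 34 libraries was sequenced after ribosomal depletion, with strand kept, per the labels' protocols. The deposited splicing table gives percent spliced in per event and library, beside a quality field with junction reads, per the file headers. The deposited expression table gives RPKM, log2 fold changes and false discovery rates (adjusted p-values) per hgRNA, per the file headers. Salmon 1.10 and edgeR are named in the submitters' processing notes. No aligner is named in the sources at hand. Another 2 library columns were not used.

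Reads across spliced junctions of intron events were summed per gene, so genes without introns are not measured and library sizes count such reads alone. A gene was kept where 2 libraries reached the equivalent of 10 reads at the median depth and its sum reached 15. After TMM scaling, limma 3.58.1 (R 4.3.3) voom was fitted with 1 coefficient per hgRNA, a prior count of 0.5, 17 residual and 5.83 prior degrees of freedom. A trend with GC content and length (splines of 5 degrees of freedom, GENCODE v29, 96.7% of genes) was subtracted per library. Events needed 20 reads in every library, with a pseudocount of 1. Duplicates are labelled biological, and nothing says that they came from separate cultures, so p-values measure the spread between these samples. In the fit with 1 coefficient per hgRNA, the error comes only from the spread between duplicates of the same hgRNA. Differences between hgRNAs of the same target, or between the control hgRNAs, do not enter that error.

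CDKN1A and MDM2 were named in every group, and called members by smallest p, up to 12 with the FNBP4 PTC exon deletion and 6 elsewhere. From other lists up to 4 called genes were named. Single values of some genes in these lists are not reported here. Members named beyond this were chosen after their values were seen. The members and lists were chosen with earlier results of these data known. Same-numbered replicates did not pair throughout in any comparison with controls. The replicate differences of its groups, control groups included, correlated at -0.595 to 0.804. The highest values were 0.804 in the DDX17 deletion comparison and 0.783 in the HDAC7 deletion comparison. Some groups thus shared a replicate difference, and its part in the counts was not tested.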

Additional observations from a re-analysis of the deposited data

Results flagged for a closer look

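Over the named members, 50 sets of 4 libraries were examined for a single library far from the other 3, and 6 had one; chance gives about 1 set in 20. CDKN1A was at 464 CPM in replicate 2 of DDX17 deletion hgRNA 1, above its 3 fellow libraries. PLK2 was at 744 CPM in replicate 1 of FNBP4 intron hgRNA 2, the highest of that deletion. With the FNBP4 PTC exon deletion, RRM2B was at 24.4 CPM in replicate 1 of hgRNA 3, the lowest of its 4 libraries, and CYFIP2 at 53.1 CPM in replicate 1 of hgRNA 4, the highest. Replicate 1 of control hgRNA 1 was the lowest control for GADD45A (63.2 CPM) and for FDXR (36.1 CPM).

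The FNBP4 PTC exon deletion differed from the other edits of FNBP4 in direct tests with limma. Against the intron deletion 25 of 33 members were called (35% of all genes), and against the knockout 20 (35.3%). The intron deletion and the knockout were not tested against each other.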

How the results depend on the processing

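With the FNBP4 PTC exon deletion 22 to 27 members were called under every alternative tried. Apart from the knockouts set against each other with the block, shares of all genes called under the alternatives are not reported here. All other counts under alternatives or with 1 library left out, here and above, have no background beside them. Of 157 alternative counts other than those leaving out 1 library, 114 were within 1.5 times the main count and 43 were not; the cause was not tested. Without the GC and length trend the counts were 3 for the HDAC7 deletion, 0 for the DDX17 knockout and 3 for the libraries labelled HDAC7 knockout. Equal counts hid other genes: 3 of 5 calls were shared for the DDX5 and 1 of 3 for the FNBP4 knockout. With no filter they were 1 for the FNBP4 intron deletion and 1 for the DDX17 knockout. With 1 coefficient per target they were 2 for the DDX17 deletion and 1 for the DDX17 knockout. With only the libraries compared they were 15 for the DDX5 deletion, 4 for the FNBP4 intron deletion, 0 for the HDAC7 deletion and 3, 0, 1 and 1 for the DDX5, DDX17, FNBP4 and (as labelled) HDAC7 knockouts. With control hgRNA 1 alone they were 2 for the DDX17, 3 for the HDAC7 and 6 for the HNRNPD deletion and 0 for the DDX17 knockout. With control hgRNA 2 alone they were 2 for the DDX5, 0 for the DDX17, 0 for the FNBP4 intron and 0 for the HDAC7 deletion, and 1, 1, 0 and 1 for the knockouts in the order above. Without replicate 2 of control hgRNA 1, DDX17 deletion hgRNA 1 and HDAC7 deletion hgRNA 1 together, chosen after seeing the data, they were 1 for the HDAC7 deletion and 8, 1 and 7 for the DDX5, DDX17 and FNBP4 knockouts. Without replicate 1 of all 4 knockouts they were 1, 0, 1 and 0, and against the other 3 knockouts 0, 4, 1 and 0.

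With the replicate number as a block the DDX17 deletion had 2 calls and the FNBP4 PTC exon deletion 27, and no other count moved by over 1.5 times. The numbers do not pair the groups throughout in any comparison with controls. Among the knockout libraries alone, where the numbers do pair (correlations 0.670 to 0.826), each knockout against the other 3 with the block gave 10, 17, 5 and 2 calls. These contrasts change the group compared with and the block together, so they are other quantities than the values against controls; MDM2 in the DDX17 knockout was -0.245 in this one and 0.096 against controls.

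Leaving out 1 library gave 2 to 5 calls for the DDX5, 1 to 9 for the DDX17, 1 to 3 for the FNBP4 intron, 25 to 26 for the FNBP4 PTC exon, 0 to 9 for the HDAC7 and 6 to 11 for the HNRNPD deletion, and 0 to 7, 0 to 2, 0 to 4 and 0 to 6 for the knockouts. Between the FNBP4 PTC exon deletion and the intron deletion it gave 22 to 26, and against the knockout 19 to 22. Splicing gave 0 to 1 called event for the FNBP4 knockout and 0 elsewhere. Of 1121 values of named members 886 were counted as the same, 228 lost the call and 6 gained it. A further 1, that MDM2 value, had the opposite sign and was called in the alternative fit. Values called in neither fit were counted as the same whatever their sign. CDKN1A with the DDX5 deletion, for example, was 0.025 in the main fit and -0.140 with the GC and length trend left in. Junction reads limit low genes such as SPATA18, BTG2 and DDB2, and groups of 2 libraries give wide errors.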
